A study of Homo sapiens with 12 samples.

Results

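The genes described here are the SLC25 mitochondrial carriers, taken as every RefSeq protein-coding gene on human chromosomes 1 to 22 and X whose symbol is SLC25A followed by digits. There were 48 of them among 19970 protein-coding genes. Members of the family under other symbols, such as UCP1, were not counted as members. The cells were HepG2/C3A, a clone of HepG2, an established line from a human liver tumour. Treated cells received sodium succinate at a final concentration of 10 mM, control cells received none (the design text calls the control a vehicle), and both were taken at 48 h. CUT&Tag, in which an antibody directs a transposase to chromatin and the released fragments are sequenced, was run with an antibody to histone H3 trimethylated at lysine 27 (H3K27me3) and with a pan-succinyllysine antibody (Ksu), which binds succinylated lysine whatever the protein. Every antibody was used on 2 biological replicates per treatment, which makes 8 libraries, and each library came as its own list of peaks. The labels do not say whether the replicates were separate cultures. The 4 IgG samples came without peak lists and were not used, so no antibody background was taken off the values here.

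SLC25 proteins form the largest family of solute carriers in human cells, and most of them sit in the inner mitochondrial membrane, where they exchange metabolites between the matrix and the cytosol. Each substrate group serves a different pathway: ADP/ATP carriers export the ATP of oxidative phosphorylation, and the dicarboxylate carrier SLC25A10 exchanges succinate or malate for phosphate. H3K27me3 is laid down by Polycomb repressive complex 2 and marks silent developmental and tissue-restricted genes, whereas lysine succinylation is an acyl modification derived from succinyl-CoA.

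The measurement was the number of bases of a gene's window, the gene body with 5 kb either side on the hg38 assembly, that lay under peaks of a library. Member windows were 11.3 to 505 kb long, with a median of 36.8 kb, against a median of 34.2 kb over all genes. A member is called higher in succinate when both succinate libraries had more covered bases than both control libraries, and lower when both had fewer. With 2 libraries against 2, an exact two-sided permutation test has 6 arrangements and cannot give a p below 0.333, so no difference here could pass 0.05. Each count of members is therefore read beside the share of all genes that met the same rule.

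The libraries differed widely in size. The H3K27me3 lists held 5531 to 19133 peaks and the Ksu lists 76702 to 629903, with control library 1 the shortest Ksu list and succinate library 2 the longest. The number of reads behind a list is unknown. To take list length out, counts were repeated with equal numbers of peaks, the 5531 (H3K27me3) or 76702 (Ksu) peaks of highest total signal in each library. Windows of the liver genes ALB, APOA1, APOB, SERPINA1, TTR and TF held no H3K27me3 in any library, while the Polycomb target HOXD13 was covered over 100% of its window in all 4 libraries and PAX6 over 32.8% to 48.4%. NEUROG1, another such target, was covered over 56.7% in control 1 and not at all in the other libraries.

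The promoters of SLC25A48, SLC25A29 and SLC25A47 are shown first because the H3K27me3 results turn on them. Each is 250 bases before to 50 after an annotated start, read 5′ to 3′ on the gene's strand, from RefSeq (GRCh38.p14), with CG dinucleotides in capitals. The CG motif reads the same on both strands, and 98.1% of all 22131 promoters in the table hold at least 1. RefSeq promoters were matched by symbol and gene ID for 40 of the 48 members, with 50 starts in all. The first start of SLC25A48 (chr5:135578922-135579221, plus strand), with 31 CG, lay under H3K27me3 in all 4 libraries, as did its second start (chr5:135834413-135834712, plus strand), with 18. The SLC25A29 promoter (chr14:100306395-100306694, minus strand) held 47 CG and overlapped H3K27me3 in the 2 succinate libraries. The promoter of SLC25A47 (chr14:100323089-100323388, plus strand) held 7 CG and overlapped H3K27me3 in no library.
SLC25A48 first start: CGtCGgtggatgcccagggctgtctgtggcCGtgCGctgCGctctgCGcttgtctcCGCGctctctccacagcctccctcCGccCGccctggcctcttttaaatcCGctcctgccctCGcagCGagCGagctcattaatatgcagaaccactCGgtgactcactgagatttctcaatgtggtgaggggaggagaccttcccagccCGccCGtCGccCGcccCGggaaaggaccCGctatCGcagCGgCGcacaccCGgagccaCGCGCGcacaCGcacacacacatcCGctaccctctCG
SLC25A48 second start: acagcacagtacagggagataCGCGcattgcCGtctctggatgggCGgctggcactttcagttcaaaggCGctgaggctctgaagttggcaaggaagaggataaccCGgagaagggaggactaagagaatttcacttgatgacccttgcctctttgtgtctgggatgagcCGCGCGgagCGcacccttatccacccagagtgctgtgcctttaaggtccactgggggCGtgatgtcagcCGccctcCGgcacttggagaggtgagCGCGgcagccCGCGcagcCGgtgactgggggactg
SLC25A29: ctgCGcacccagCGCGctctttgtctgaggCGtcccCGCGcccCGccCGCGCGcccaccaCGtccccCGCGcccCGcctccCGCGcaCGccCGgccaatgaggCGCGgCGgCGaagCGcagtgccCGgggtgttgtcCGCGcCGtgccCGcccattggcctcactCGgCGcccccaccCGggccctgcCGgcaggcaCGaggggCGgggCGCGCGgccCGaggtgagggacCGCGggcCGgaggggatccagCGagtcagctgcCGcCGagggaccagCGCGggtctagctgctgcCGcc
SLC25A47: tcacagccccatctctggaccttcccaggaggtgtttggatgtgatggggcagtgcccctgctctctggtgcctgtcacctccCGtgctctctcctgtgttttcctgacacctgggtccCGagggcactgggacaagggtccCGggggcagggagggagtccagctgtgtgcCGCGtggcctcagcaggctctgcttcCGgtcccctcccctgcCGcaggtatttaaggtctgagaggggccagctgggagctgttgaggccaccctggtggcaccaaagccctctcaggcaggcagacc

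Promoters of the family were rich in CG. The median number was 26 per 300 bases over the 50 member starts and 21 over all starts. The ratio of observed to expected CG was at least 0.6 at 40 member starts (80.0%) and at 62.2% of all starts. The lowest count was 3, at SLC25A18, which encodes a mitochondrial glutamate carrier.

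H3K27me3 was sparse over the family. Peaks overlapped the windows of 6 and 3 members in control libraries 1 and 2 and of 6 and 5 in succinate libraries 1 and 2. Over all genes the corresponding shares were 28.4%, 16.1%, 24.0% and 18.7%, while for the members they were 12.5%, 6.25%, 12.5% and 10.4%. In no library did 39 of the 48 members (81.2%) hold any H3K27me3, against 69.5% of all genes. Those 39 include all 4 ADP/ATP carriers, all 4 ATP-Mg/phosphate carriers, the phosphate carrier SLC25A3 and the succinate carrier SLC25A10. They also include the mitoferrins SLC25A28 and SLC25A37 and the uncoupling-protein relatives SLC25A14, SLC25A27 and SLC25A30. The ADP/ATP carrier SLC25A6 lies in a stretch of chromosome X without a peak of either antibody in any library, so its lack of H3K27me3 is uninformative. Only 3 members, SLC25A34, SLC25A39 and SLC25A48, overlapped a peak in all 4 libraries, 6.25% of members beside 14.7% of all genes.

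The summed windows of the family were covered less than those of all genes in each library. H3K27me3 peaks lay over 5.47% and 2.91% of the members' bases in the control libraries and over 3.84% and 2.43% in the succinate libraries, against 7.69%, 5.01%, 6.99% and 5.92% over all genes. One gene held most of these bases. SLC25A48 contributed 87.8% and 95.4% of the members' H3K27me3 bases in the control libraries and 79.5% and 74.9% in the succinate libraries. On the log2 scale, cover of the members relative to all genes differed by -0.44 between succinate and control, with a pooled SD of 0.26 between replicates. Without SLC25A48 the difference was 1.15 with a pooled SD of 0.85, in the other direction. The other 47 members were covered over 0.750% and 0.151% of their bases in control and 0.883% and 0.683% in succinate. The bars of covered share set these values side by side.

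**Figure D1:**
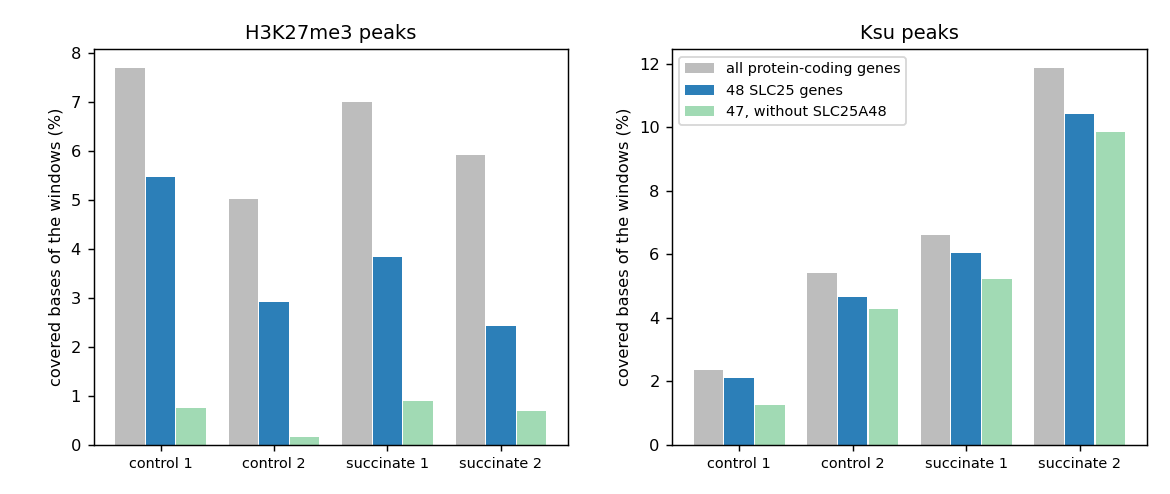
Covered bases of the gene windows (%) by H3K27me3 peaks (left) and Ksu peaks (right) in each library; grey bars are all 19970 protein-coding genes, blue bars the 48 SLC25 genes and green bars the 47 without SLC25A48. The blue bars are below the grey ones in all 8 libraries, and for H3K27me3 the green bars stay below 1%.

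SLC25A48, a carrier described as importing choline into mitochondria, carried the widest H3K27me3 of the family. Its gene (chr5:135579172-135888637) has a window of 319 kb, of which 141202, 81442, 89698 and 53370 bp were covered in control 1, control 2, succinate 1 and succinate 2. As shares these were 44.2%, 25.5%, 28.1% and 16.7%. Control 1 was the highest and succinate 2 the lowest, but succinate 1 exceeded control 2, so the treatments overlapped. The mean difference of -12.5 percentage points was close to the pooled SD of 10.9. At equal numbers of peaks the shares were 33.4%, 25.5%, 14.2% and 16.7%, and there both succinate libraries were below both controls.

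Stretches under H3K27me3 in more than 1 library lay at the same places of the gene. A peak spanned the first start and reached into the neighbouring gene CXCL14, which encodes a chemokine, in all 4 libraries, and the window of CXCL14 was itself covered over 85.7% to 100%. A separate peak of 14.8 to 16.2 kb spanned the second start, 255 kb downstream, in all 4 libraries. Control 1 had 14 peaks in the window, control 2 and succinate 1 had 7 each, and succinate 2 had 4. The map of the SLC25A48 window shows that the additional stretches of control 1 lay between those shared with the other lists.

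**Figure D2:**
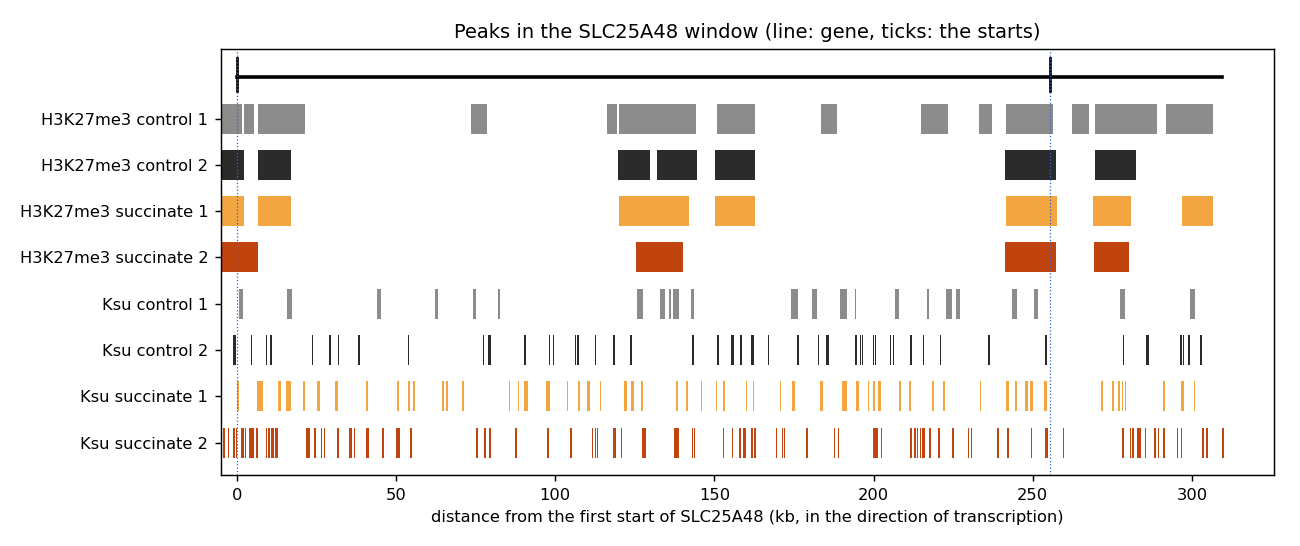
Peaks in the SLC25A48 window, with distance from the first start (kb) on the horizontal axis and 1 row per library (H3K27me3 above, Ksu below); the black line is the gene and the ticks its 2 annotated starts. H3K27me3 bars cover both starts in all 4 libraries, and Ksu peaks are narrow and spread along the gene.

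SLC25A48 also had the highest mean Ksu cover of the family, 11.2% over 4 libraries. Its Ksu cover was 29280 and 24760 bp in the controls against 41542 and 47723 bp with succinate, or 9.17%, 7.75%, 13.0% and 14.9% of the window. Both succinate libraries were above both controls, by 5.51 percentage points on average with a pooled SD of 1.20. With equal numbers of peaks the order did not hold, since the shares were 9.17%, 1.73%, 5.67% and 4.90%, and the mean difference was -0.17 points. Ksu peaks covered 11.8%, 8.88%, 19.2% and 18.3% of the bases under H3K27me3 peaks of the same treatment and replicate number, and 7.08%, 7.37%, 10.6% and 14.3% of the window's other bases. The share was higher under H3K27me3 in all 4 library pairs. Of the 4 merged Ksu regions in member windows that held a peak of every library, 3 were in SLC25A48. They include the one at its first start (chr5:135577870-135581308). The other was in SLC25A46, which encodes an outer-membrane protein of mitochondrial dynamics. Merging joined neighbouring peaks, and in the 3 regions of SLC25A48 no base lay under peaks of all 4 libraries. The control 2 peak ended at -0.417 kb from the first start and the control 1 peak began at 0.562 kb.

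SLC25A29 and SLC25A47 are neighbours on chromosome 14, and H3K27me3 covered most of the ground between them in the succinate libraries. SLC25A29 encodes a carrier of basic amino acids, and SLC25A47 a carrier expressed mainly in liver. SLC25A29 (chr14:100278567-100306444) had no covered base in either control, and 5003 and 5940 bp with succinate. The means were 0% and 14.4%, with a pooled SD of 1.24 points. In both succinate libraries the peak filled the whole 5 kb flank and ran beyond it, at widths of 11.4 and 16.7 kb. The small SD therefore follows from the window edge and does not measure how alike the peaks were. In succinate 1 the peak ran over chr14:100306442-100317800 and in succinate 2 over chr14:100305505-100322176. It covered the SLC25A29 start and most of the ground between the genes in both. It ended 5.54 kb short of the SLC25A47 gene in succinate 1 and 1.16 kb short in succinate 2. Gene body cover was 3 and 940 bp, so nearly all of the signal lay upstream of the gene.

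The values at SLC25A47 (chr14:100323339-100330421) come from the same stretch, since its window reaches into it. Its H3K27me3 cover was 0 bp in both controls and in succinate 1 and 3838 bp in succinate 2, all outside the gene body, and the treatments overlapped. The whole interval between the genes, chosen after its values were seen, is 16.9 kb long. It was covered over 3.70 and 0 kb in control and 11.4 and 15.7 kb in succinate, so control 1 held a shorter peak there that ended short of both windows. The control 1 peak was not among the 5531 of highest total signal, and equal numbers of peaks gave 0, 0, 11.4 and 15.7 kb. With a common floor of total signal, only succinate 2 kept its peak. That floor was the lowest value of succinate 2 itself, so its list could lose no peak by this setting. The map from SLC25A29 to SLC25A47 shows these positions.

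**Figure D3:**
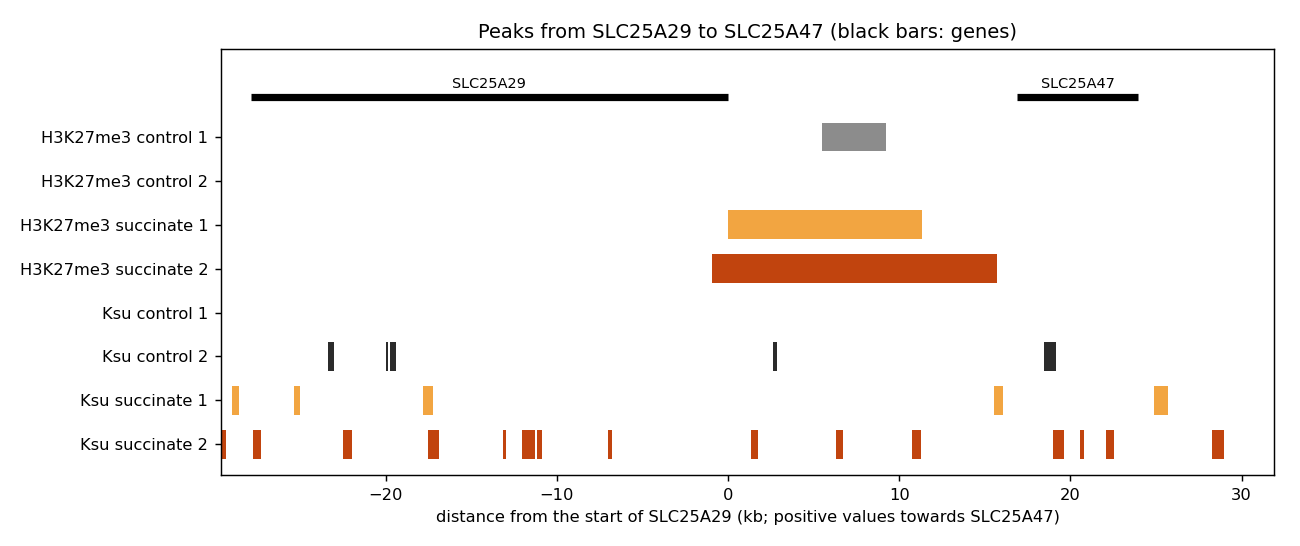
Peaks from SLC25A29 to SLC25A47, with distance from the SLC25A29 start (kb, positive towards SLC25A47) on the horizontal axis, 1 row per library and black bars for the genes. H3K27me3 fills most of the ground between the genes in both succinate libraries, 3.70 kb of it in control 1 and none in control 2.

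SLC25A34, an orphan carrier, was the other member above in both succinate libraries. Its cover was 22 and 90 bp in the controls against 453 and 5771 bp with succinate, so the treatments did not overlap, but succinate 2 alone made up most of the difference. The mean difference was 20.2 percentage points with a pooled SD of 17.6, and 2.62 points without succinate 2. The peak sat on the neighbouring gene TMEM82 in all 4 libraries, 6.60 and 8.67 kb wide in control and 15.7 and 26.2 kb wide in succinate, and only in succinate 2 did it enter the SLC25A34 gene body, by 771 bp. TMEM82's own window was covered over 42.7% and 43.1% in control and 45.5% and 79.8% in succinate.

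SLC25A39, a carrier needed for mitochondrial glutathione import, had 4020, 3869, 4602 and 2326 bp covered in control 1, control 2, succinate 1 and succinate 2. The treatments overlapped. These bases belonged to a peak on the neighbour RUNDC3A that stopped 399 to 2675 bp short of the SLC25A39 gene body. The gene itself was therefore free of H3K27me3 in each library.

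The remaining members with H3K27me3 had it in 1 or 2 libraries. SLC25A26, the S-adenosylmethionine carrier, had 9002 and 0 bp in the controls against 11598 and 0 bp with succinate, so the cover went with replicate number 1 in both treatments. SLC25A52, a NAD carrier closely related to SLC25A51, had 5899 bp in control 1 only, and SLC25A18 had 682 bp in control 1 only. SLC25A1, the citrate carrier, had 1468 bp in succinate 1 only, 3533 bp from the gene. These 4 showed no separation of the treatments, and none of their peaks was among the 5531 strongest of its library. The plot of H3K27me3 by member shows all 9 genes.

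**Figure D4:**
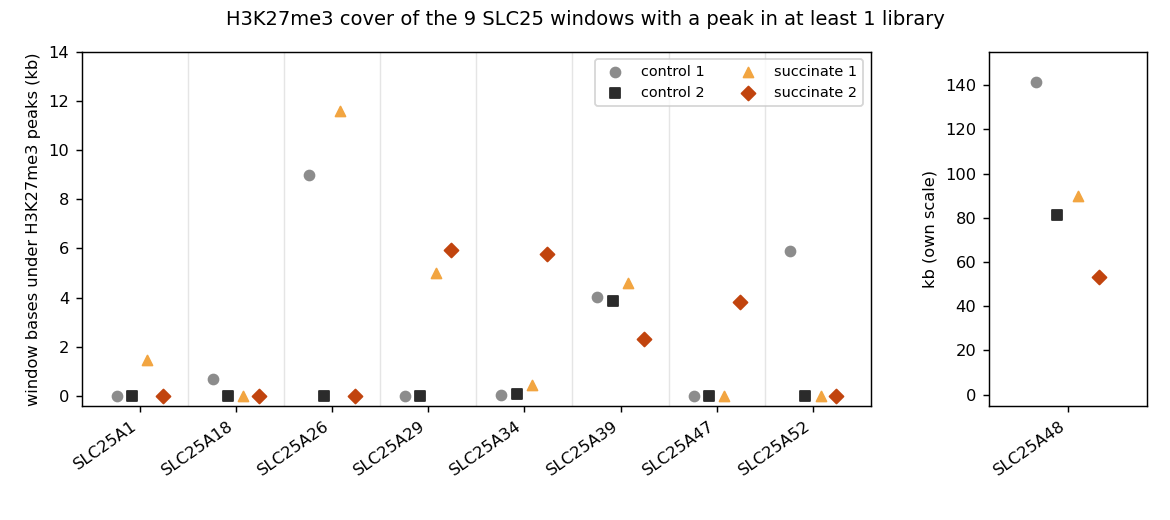
Window bases under H3K27me3 peaks (kb) for the 9 SLC25 genes with a peak in at least 1 library, 1 point per library, with SLC25A48 on its own scale at the right. SLC25A29 has both succinate libraries above 5 kb and both controls at 0, while SLC25A48 runs from 53.4 to 141 kb with the treatments overlapping.

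In counts, 2 of 48 members (SLC25A29 and SLC25A34) had more H3K27me3 in succinate without overlap, beside 6.33% of all genes, and 0 had less, beside 1.46%. Without succinate 2 the first count was 5. The second was 3 without control 2 and 2 without succinate 1. No share of all genes was taken with a library left out, so these counts are not read as traits of the members. At equal numbers of peaks 2 members were higher, beside 7.84% of all genes, and 1 was lower (SLC25A48), beside 1.14%.

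Ksu peaks were narrow and common. They overlapped 17 and 40 members in control and 42 and 45 in succinate. These counts are 35.4%, 83.3%, 87.5% and 93.8% of members, beside 41.5%, 84.5%, 84.6% and 94.7% of all genes. Ksu peaks covered 2.11%, 4.64%, 6.05% and 10.4% of the members' bases against 2.35%, 5.41%, 6.60% and 11.9% over all genes. Of the 48 members, 24 had more Ksu-covered bases in both succinate libraries than in both controls (beside 55.7% of all genes) and 1 had fewer (beside 0.581%). The median difference in covered share was 5.25 percentage points over the members and 5.39 over all genes. The family therefore followed all genes closely: on the log2 scale its cover relative to all genes differed by 0.030 between succinate and control, with a pooled SD of 0.045. That difference became -0.069 at equal numbers of peaks, and 0.32 when SLC25A48 was left out, with a pooled SD of 0.29 for the latter.

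List length moved with these counts. Succinate 2, the longest Ksu list, gave the highest cover in 36 members (and in 74.5% of all genes), and control 1, the shortest, held no Ksu in 31 members (and in 11677 of the 19970 genes). Of the 24 higher members, 17 had none in control 1 (70.8%, and 54.8% of the 11117 higher genes). Without succinate 1 the count of higher members was 41. The 1 lower member became 3 without control 1, 2 without control 2 or succinate 1, and 4 without succinate 2. No share of all genes was taken with a library left out, so these counts are not read as traits of the members. At equal numbers of peaks 5 members were higher, beside 18.8% of all genes, and 4 were lower, beside 4.99%. The part of list length in the other calls was not tested further.

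Presence in all 4 Ksu libraries went with window length. It held for 16 members, beside 38.7% of all genes. Another 21 members were overlapped in the 3 libraries other than control 1 but not in it, as were 7287 of the 19970 genes. This makes 37 members overlapped in those 3 libraries. Of 14 member windows under 20 kb, 1 was overlapped in all 4, of 15 between 20 and 50 kb, 2 were, and of 19 at 50 kb or over, 13 were (68.4%). The shares of all genes in these classes, which were set after the values were seen, were 11.95%, 27.6% and 69.6%.

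Among the di- and tricarboxylate carriers, 0 of 4 separated the treatments, where 55.7% of all genes were higher and 0.581% lower. SLC25A10 had 0 and 2050 bp of Ksu in the controls against 440 and 3232 bp with succinate, or 0%, 10.9%, 2.35% and 17.3% of its window. Control 2 exceeded succinate 1, and the mean difference of 4.33 percentage points was under the pooled SD of 9.25. At equal numbers of peaks the SLC25A10 window held no Ksu peak in any library.

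In the other carboxylate carriers the pooled SD was smaller but again exceeded the mean difference. It was 1.16 points for SLC25A1, 4.07 for SLC25A11 and 4.26 for SLC25A21. SLC25A1 had 0 and 142 bp in the controls against 0 and 271 bp with succinate. SLC25A11, which exchanges 2-oxoglutarate for malate, had 568 and 0 bp in the controls against 0 and 886 bp with succinate, so each treatment had an empty library. SLC25A21, the 2-oxoadipate carrier and the longest window of the family at 505 kb, had 10420 and 46252 bp in the controls against 28392 and 52190 bp with succinate. SLC25A35, an orphan carrier related in sequence to SLC25A34, had 0 and 811 bp in the controls against 936 and 941 bp with succinate. It met the rule for more Ksu, although control 2 lay 125 bp below succinate 1, and its mean difference of 3.02 points with a pooled SD of 2.30 became -0.91 at equal numbers of peaks.

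Of the amino acid and carnitine carriers 10 of 11 were higher in succinate (55.7% of all genes were). SLC25A13, an aspartate/glutamate carrier, was the exception, and the choline carrier SLC25A48 is counted in this group. At equal numbers of peaks 1 of the 11 was higher, SLC25A12 (18.8% of all genes were). It encodes the other aspartate/glutamate carrier, of the malate-aspartate shuttle, and its replicates lay close together beside the difference. SLC25A12 (chr2:171783405-171894244) had 2488 and 2575 bp of Ksu in the controls against 13554 and 18220 bp with succinate. As shares these were 2.06%, 2.13%, 11.2% and 15.1%, a difference of 11.1 percentage points with a pooled SD of 1.93. Its window held 10 merged regions with a peak of both succinate libraries and of neither control, the most of any member, and 0 of the reverse kind. At equal numbers its shares were 2.06%, 0%, 3.68% and 2.40%.

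The largest mean difference belonged to SLC25A2, an intronless ornithine carrier gene. It had 0 and 674 bp in the controls against 1573 and 2231 bp with succinate, a difference of 13.7 points with a pooled SD of 4.13 over a window of 11.4 kb. SLC25A18 had 0 and 522 bp in the controls against 2288 and 6519 bp with succinate. SLC25A15, the ornithine carrier of the urea cycle, had 0 and 353 bp in the controls against 1674 and 5254 bp with succinate. In SLC25A18 and SLC25A15 succinate 2 was far above succinate 1, and the pooled SDs were 5.68 and 5.48 points against differences of 11.0 and 10.0. SLC25A22, a glutamate carrier, and SLC25A38, a glycine carrier of haem synthesis, had no Ksu in either control and 1.79% and 10.6%, and 6.86% and 8.58%, in succinate.

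Nucleotide and cofactor carriers were higher in succinate in 7 of 12 cases, and 2 of these, SLC25A17 and SLC25A33, were also higher at equal numbers of peaks. Both counts are near the shares of all genes, 55.7% and 18.8%. SLC25A33, a pyrimidine nucleotide carrier, had 0 and 2489 bp in the controls against 6925 and 4905 bp with succinate, a difference of 8.38 points with a pooled SD of 2.88. SLC25A17, a peroxisomal carrier of coenzyme A and related cofactors, had 668 and 1930 bp in the controls against 4753 and 4608 bp with succinate. Its difference of 5.66 points was large beside the pooled SD of 1.06. SLC25A39, whose flank held the RUNDC3A H3K27me3 peak, had 0 and 0 bp of Ksu in the controls against 1473 and 874 bp with succinate.

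Both iron carriers were higher in succinate, at equal numbers of peaks too, where 55.7% and 18.8% of all genes were. SLC25A28 (mitoferrin 2) had 986 and 3535 bp in the controls against 4390 and 9831 bp with succinate, a difference of 8.25 points with a pooled SD of 5.11, and the third highest mean cover of the family, 7.97%. SLC25A37 (mitoferrin 1) had 3.63% at most in control and 4.85% and 12.5% in succinate. Of the uncoupling-protein relatives, SLC25A27 (UCP4) was higher, with 0 and 1265 bp in the controls against 3666 and 6154 bp with succinate, a difference of 12.1 points with a pooled SD of 3.96. SLC25A14 and SLC25A30 overlapped. SLC25A30 was lower at equal numbers of peaks, with 671 and 424 bp in the controls and none with succinate.

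Of the ADP/ATP carriers 0 of 4 were higher, where 55.7% of all genes were. SLC25A6 among them lies in a stretch of chromosome X without a peak in any library. SLC25A31 was the only member of the 48 lower in succinate, beside 0.581% of all genes. SLC25A31, the testis form, had 2161 and 3654 bp in the controls against 1906 and 1987 bp with succinate. The gap between the lowest control and the highest succinate library was 174 bp, and the mean difference of -1.78 points stood beside a pooled SD of 1.39. SLC25A31 was lower at equal numbers of peaks too, with 4.01% and 2.30% of its window in the controls and none in the succinate libraries. SLC25A5, the form of most proliferating cells, had 592 bp in control 2 only. Of the ATP-Mg/phosphate carriers 1 of 4 was higher, SLC25A23, beside 55.7% of all genes. It had 0 and 0 bp in the controls against 1704 and 2004 bp with succinate. The phosphate carrier SLC25A3 overlapped. SLC25A25, another ATP-Mg/phosphate carrier, overlapped with all peaks and was lower at equal numbers, with 717 and 596 bp in the controls and none with succinate. The differences between substrate groups were not tested.

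Among the 7 other or orphan carriers 3 were higher, beside 55.7% of all genes: SLC25A35, SLC25A47 and SLC25A53. SLC25A47 had 0 and 658 bp in the controls against 1301 and 2040 bp with succinate, a difference of 7.85 points with a pooled SD of 2.90. At equal numbers of peaks 0 of the 7 were higher and SLC25A46 was lower, beside 18.8% and 4.99% of all genes. The plot of Ksu by member shows every value.

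**Figure D5:**
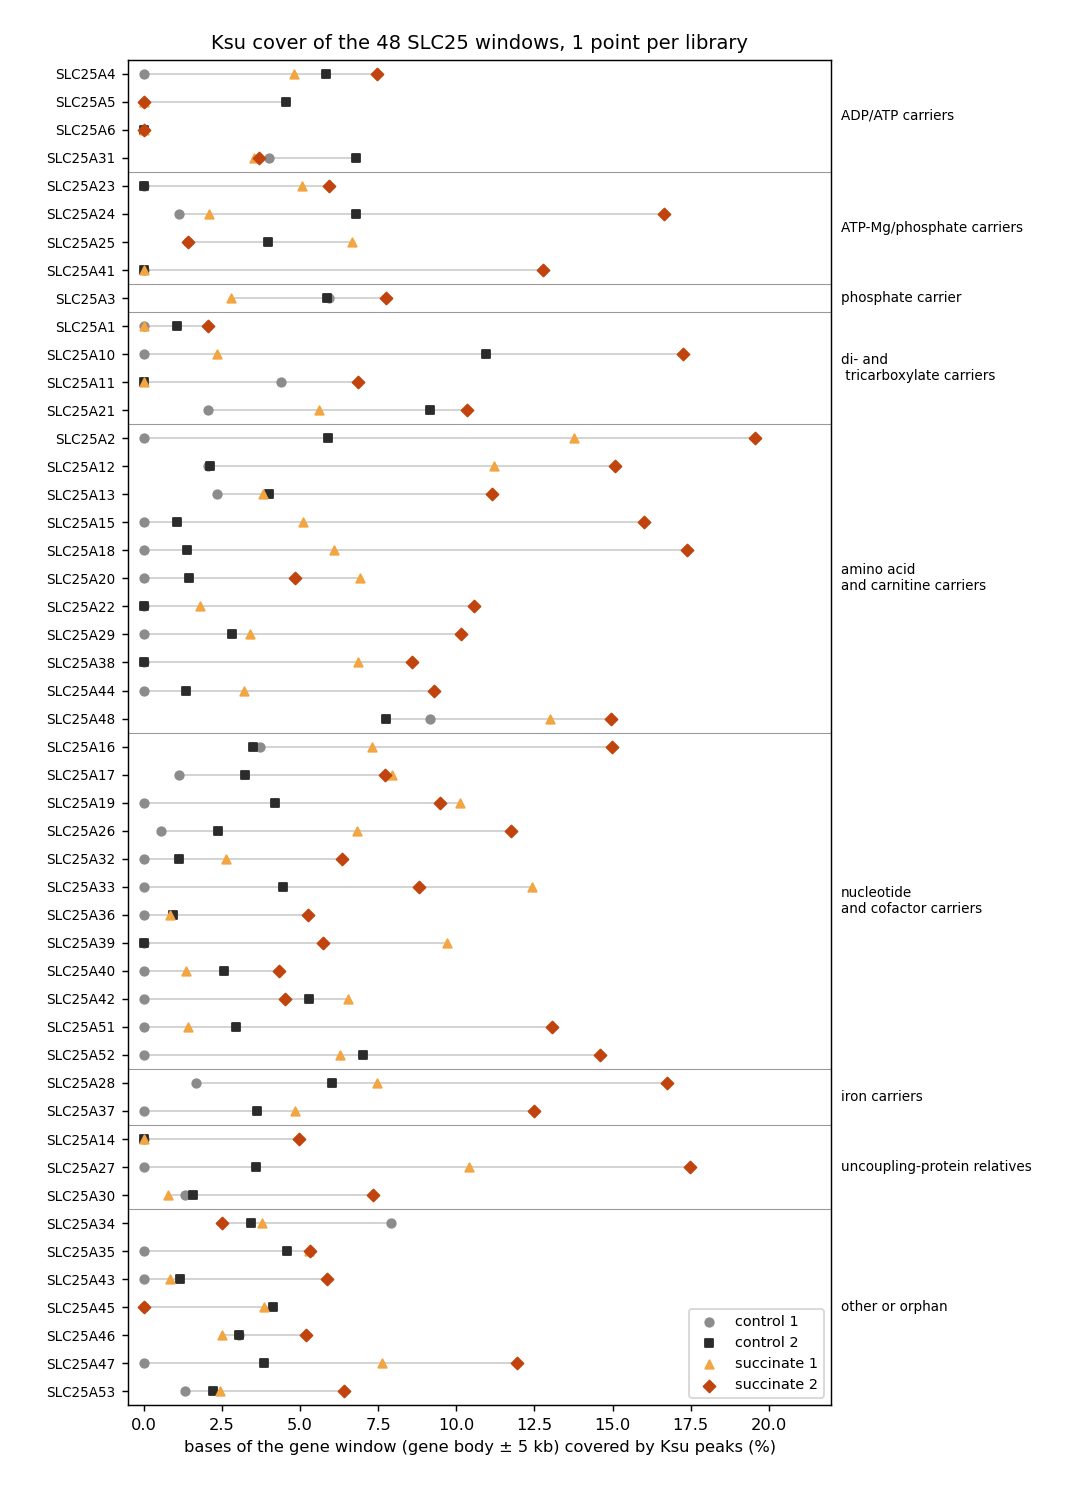
Share of each SLC25 window covered by Ksu peaks (%), 1 point per library, with the 48 genes ordered by substrate group. In 36 genes the succinate 2 point lies farthest right, and in 31 the control 1 point is at 0.

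SLC25A6, another somatic ADP/ATP carrier, was the only member with no Ksu peak in any library, and it had no H3K27me3 either. The share of all genes with no Ksu in any library was 3.43%. The gene (chrX:1386152-1392113) lies in the pseudoautosomal region at the tip of the X chromosome. No Ksu peak of any library lay before base 2783172 of chromosome X and no H3K27me3 peak before 2790784, and 16 protein-coding genes end before those positions. How reads with more than 1 placement were treated is not given in the sources used here.

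Around annotated starts, within 1 kb either side, the members' Ksu cover could be set beside that of all genes. This window was chosen after the data were seen. Ksu peaks reached it in 3 and 11 of the 40 members in control and in 9 and 9 in succinate, and in 4.87%, 24.6%, 21.0% and 36.2% of 15811 genes with a start. Only SLC25A48 had Ksu near a start in all 4 libraries, 1 of 40 members beside 0.791% of genes. More Ksu near a start in succinate without overlap was found in 3 of 40 members, SLC25A18, SLC25A27 and SLC25A48, beside 7.87% of genes. At SLC25A27 the start window held 0 and 219 bp in the controls against 808 and 309 bp with succinate. For H3K27me3, SLC25A48 was again the 1 member of 40 covered in all 4 libraries, beside 8.12% of genes.

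Merging the Ksu peaks of the 4 libraries gave 992 regions in member windows. Of these, 442 (44.6%) came from succinate 2 alone, and 39.0% did so over the 1041143 regions of the genome. Regions with a peak of both succinate libraries and neither control numbered 53 (5.34%, and 5.40% over the genome), spread over 21 members, and those of both controls and neither succinate library numbered 3 (0.302%, and 0.631%), in SLC25A13, SLC25A21 and SLC25A53. After SLC25A12, the members with most regions of the first kind were SLC25A21, SLC25A26 and SLC25A48 with 6 each, which have the 3 longest windows of the family. Only 4 regions (0.403%, and 0.548%) held a peak of every library, and the 3 in SLC25A48 had no base common to all libraries.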

How the data were processed

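The peak caller SEACR and the build hg38 are named in the submitters' processing notes, and each deposited list belongs to a single library. For each peak the deposited lists give coordinates, total signal, highest signal and its place. The scaling of that signal by the authors differs between libraries and is not given in the sources used here, nor are the aligner and the calling threshold. Signal was therefore used to rank peaks within a library, except for the common floor, which compares libraries. There, total signal was divided by the step of which a library's highest-signal values were whole multiples. The floor was the largest of the libraries' lowest values, that of succinate 2 for H3K27me3 and of control 1 for Ksu. Whether this step removes the scaling was not tested. Read depth is not known from peak lists. Gene positions and promoters came from RefSeq tables for GRCh38. Windows of 5 kb either side of each gene were intersected with peaks in Python 3.11.15 (numpy 2.4.6, pandas 2.3.3), counting an overlap of 1 bp or more, and the cover function was tested on simulated data.

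The members and lists were chosen with earlier results of these data known. Values in every library are printed for SLC25A1, SLC25A10, SLC25A11, SLC25A21 and SLC25A35, all members with H3K27me3, the 8 members with the largest higher and up to 5 with the largest lower mean Ksu share in succinate among those without overlap, the 3 highest mean Ksu shares, and members with no Ksu. Other members named were chosen after their values were seen. Alternatives were equal numbers of peaks, the 50% of highest total signal, a common floor of total signal, peaks of at least 500 bp, other windows, each library left out, and a replicate block. Beside the promoters printed, another is not reported here.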

Additional observations from a re-analysis of the deposited data

How the results depend on the processing

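Settings that keep fewer peaks moved the most counts. With equal numbers of peaks, the count of members higher in Ksu moved from 24 to 5, the count lower from 1 to 4 and the count overlapped in all 4 libraries from 16 to 6, and a common floor of total signal gave 3, 0 and 1. When each list was cut to the 50% of its peaks with the highest total signal, 3 members were lower in Ksu and 8 were overlapped in all 4 libraries. Gene bodies without flanks gave 2 lower members and 10 kb flanks gave 0. Relative Ksu cover (log2 difference 0.030) turned to -0.069 with equal numbers and to -0.028 with the 50% of highest signal, and was 0.32 without SLC25A48, an alternative added after seeing the data. For H3K27me3, the count lower in succinate moved from 0 to 1 with equal numbers and with the common floor. The count higher (2) and the count in all 4 libraries (3) were each 1 with the 50% of highest signal and with gene bodies. The count in all 4 libraries was also 1 with the common floor. The count higher was still 2 there, but SLC25A29 overlapped and SLC25A39 was higher instead. Their differences with the common floor were 7.84 and 22.8 points. The floor could take no H3K27me3 peak from succinate 2, the library that set it. Relative H3K27me3 cover (-0.44) was -0.86 with equal numbers and turned to 1.15 without SLC25A48. The cause of these changes was not tested. Shares of all genes were taken for all peaks and for the higher and lower counts at equal numbers of peaks. The other counts of this section have no such share and are not read as traits of the members.

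Leaving out 1 library at a time gave 24 to 41 members higher and 2 to 4 lower in Ksu, 16 to 37 in the remaining libraries, and a relative cover of -0.0018 to 0.062. For H3K27me3 it gave 2 to 5 higher, 0 to 3 lower, 3 in the remaining libraries and -0.65 to -0.23. Where this leaves a single library in a group, the value has no test.

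The labels give replicate numbers without saying that a number marks a shared batch. With the replicate block, in which each succinate library is set against the control of its number, 34 members were higher and 2 lower in Ksu, and 2 were higher and 1 lower in H3K27me3. Replicate differences of the treatments correlated at 0.42 (H3K27me3) and 0.12 (Ksu) across 19970 genes, which are not independent.

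Among single genes, the Ksu difference of SLC25A35 turned to -0.91 points with equal numbers of peaks, and that of SLC25A48 to -0.17 points with equal numbers and -0.41 points with the common floor. Of the other single-gene and start values, 187 moved by less than the spread between replicates (or, for counts, by at most 1.5 times) and 58 moved by more without turning a called direction.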

Other observations

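Relatives of the family under other symbols, and other carriers of the same metabolites, gave these values. UCP1, the brown fat uncoupling protein, had 22.8% of its window under H3K27me3 in control 1, 3.78% in succinate 1 and 0% in the other 2 libraries. UCP2 and UCP3 had no H3K27me3 and were higher in Ksu in both succinate libraries, with UCP2 at 0% and 0% in the controls against 19.1% and 9.15%, and UCP3 at 3.07% and 7.36% against 15.5% and 10.4%. MTCH1, a relative in the outer membrane, had 8.29% and 0% of its window under H3K27me3 in control and 19.3% and 11.3% in succinate, and MTCH2 had none. With equal numbers UCP2 remained higher in Ksu, UCP3 overlapped, with 578 bp in control 1 and none in the other libraries, and UCP1 was lower, with 1073 and 687 bp in the controls and none with succinate. The pyruvate carrier genes MPC1 and MPC2 had no H3K27me3 and were higher in Ksu in succinate, with 0% and 5.87% against 7.72% and 8.17% for MPC1 and 0% and 0% against 7.38% and 13.0% for MPC2. The order held for MPC2 but not for MPC1 at equal numbers of peaks.

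Dicarboxylate and citrate transporters of the plasma membrane, through which succinate and citrate can enter cells, differed among themselves. SLC13A2 was covered by H3K27me3 over 59.3% and 37.0% of its window in control and 68.9% and 75.7% in succinate, and by Ksu over 7.26% and 5.70% against 8.48% and 19.4%, without overlap for either antibody. SLC13A3 had no H3K27me3 in control and 0.70% and 0.63% in succinate, with Ksu over 6.15% and 4.44% against 19.0% and 16.7%. SLC13A5, the citrate transporter of liver, had no H3K27me3 in any library, and its Ksu cover of 0% and 4.52% in control overlapped that of 3.87% and 13.3% in succinate. The Ksu order held for SLC13A3 but not for SLC13A2 at equal numbers of peaks, and the H3K27me3 order held for both.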
